A study of Mus musculus with 6 samples.

Results

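Solute carrier genes, whose mouse symbols start with Slc, were followed in single immune cells of livers seeded with 4T07 breast cancer cells. Every feature that named 1 gene with such a symbol was taken, whatever its values. This gave 82 of the 5143 single-gene features of the 3 deposited matrices, with 75 of 4358 in the matrix of adjacent tissue (AT), 39 of 2627 in that of micrometastasis and 34 of 2595 in that of macrometastasis. All 3 matrices held 22 of these genes, 22 were in 2 of them and 38 in 1. Each matrix holds only the genes that the authors selected as variable at that site, so a gene missing from a matrix is not shown to be silent there.

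Balb/c mice received 4T07 cells, a mouse mammary carcinoma line, by intracardiac injection. The cells were either control cells (Ctrl) or carried an shRNA against Tim3 (Tim3-KD), so the knockdown was in the tumor cells and not in the immune cells that were sequenced. Liver was sectioned at day 3 (micrometastasis and AT) and at day 12 (macrometastasis), and cells carrying CD45, the marker of leukocytes, were sorted for 10x 3' sequencing. Each of the 6 groups was 1 library, made from a pool of 2 mice by the study's methods, so no spread between animals can be given, and mice within a pool cannot be told apart.

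Solute carriers are membrane proteins that move amino acids, sugars, metals, nucleosides, organic acids and inorganic ions across the plasma membrane and the membranes of organelles, by facilitated diffusion or coupled to ion gradients. In leukocytes they are best known for export of iron from macrophages that clear red cells (Slc40a1, ferroportin), for glucose uptake and lactate export in glycolytic cells (Slc2a1 and Slc2a3, which encode GLUT1 and GLUT3, and Slc16a3, which encodes MCT4), and for exchange of cystine for glutamate, which feeds glutathione synthesis (Slc7a11, xCT). By the substrate of each family, 16 genes carry amino acids or peptides, 16 sugars, sugar phosphates or nucleotide sugars, 13 inorganic ions, 12 iron and other metals, 6 nucleosides, vitamins or choline and 5 monocarboxylates, fatty acids or organic ions. A further 8 belong to the mitochondrial carrier family, 2 fit none of these groups (Slc49a4 and Slc66a2), and 4 carry an Slc symbol but are no carriers (the scaffold gene Slc9a3r2, Slc4a1ap, Slc7a6os and Slc36a3os). Counts of Slc genes below include these 4.

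Sequences are shown for 3 carriers whose levels the results turn on or whose control in other settings is well known: 250 bases before a RefSeq start site in GRCm38.p6, read 5′ to 3′ on the gene's strand. Capitals mark matches, on either strand, to TGATGNAA (the core of the amino acid response element) in Slc7a11 and to ACGTG (the core of the hypoxia response element) in the remaining sequences. The window of Slc7a11, a gene on chromosome 3, lies at chr3:50443614-50443863 on the minus strand, that of Slc16a3 at chr11:120948817-120949066 on the plus strand and that of Slc2a1 at chr4:119108495-119108744 on the plus strand.
Slc7a11: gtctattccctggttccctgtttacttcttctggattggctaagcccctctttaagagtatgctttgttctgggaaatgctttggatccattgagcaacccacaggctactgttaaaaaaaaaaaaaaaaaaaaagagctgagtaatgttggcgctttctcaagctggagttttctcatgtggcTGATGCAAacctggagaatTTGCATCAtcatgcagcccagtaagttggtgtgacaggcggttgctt
Slc16a3: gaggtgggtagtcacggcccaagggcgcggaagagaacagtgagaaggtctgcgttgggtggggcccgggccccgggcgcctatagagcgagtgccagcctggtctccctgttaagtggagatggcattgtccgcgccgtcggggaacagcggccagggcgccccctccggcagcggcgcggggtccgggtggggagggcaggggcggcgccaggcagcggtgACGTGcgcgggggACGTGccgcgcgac
Slc2a1: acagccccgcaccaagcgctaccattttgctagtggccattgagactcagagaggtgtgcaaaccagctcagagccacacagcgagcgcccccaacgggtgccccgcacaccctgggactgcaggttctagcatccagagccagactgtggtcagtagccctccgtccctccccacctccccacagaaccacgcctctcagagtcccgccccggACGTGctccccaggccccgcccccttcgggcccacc
The window of Slc7a11 held 2 matches to TGATGNAA, that of Slc16a3 held 2 matches to ACGTG and that of Slc2a1 held 1. TGATGNAA occurred in 3.45% of the 32851 promoter windows of this length and in 6 of the 88 windows of the 64 Slc genes that could be matched, and ACGTG in 16.6% and 19 of 88. TGACNNNGC, the core of the antioxidant response element, occurred in 10.2% of all windows and in 16 of 88, and in none of the 3 shown here. A match is only a string of letters, and no binding was measured in these data.

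The libraries held 1803 (AT Ctrl), 542 (AT Tim3-KD), 5106 (micrometastasis Ctrl), 5142 (micrometastasis Tim3-KD), 4913 (macrometastasis Ctrl) and 5502 (macrometastasis Tim3-KD) cells, with a median of 6300 to 10248 UMIs per cell, and any pair of libraries shared 0 to 11 barcodes. Cells were clustered without the Slc genes into 24 clusters and 13 classes named from fixed marker lists. Each class name below means cells like that type by these markers. CD45 sorting did not remove all other cells: an endothelial-like class held 2 to 346 cells per library, and the summed level of hepatocyte markers was 108 to 483 per 1000000 UMIs. The AT Tim3-KD library stood apart, with 19 mature neutrophils and 1 neutrophil precursor among its 542 cells against 574 and 340 of 1803 in AT Ctrl, and with 104 Kupffer cells against 31. Levels are given as UMIs of a gene per 1000000 UMIs of all genes in the same cells (CPM), with an exact Poisson 95% interval that covers counting error only. In 3' counting each molecule gives 1 tag, so no gene length enters. In brackets after a pair of levels stands their ratio, Tim3-KD over Ctrl or, between Ctrl libraries, the first group named over the second. A gene counts as higher or lower when such a ratio is at least 2 or at most 0.5 with at least 100 UMIs over both libraries. With 1 library per group there was no test, and each ratio compares 2 libraries, not 2 conditions. Its 95% interval, exact and conditional on the summed UMIs, again covers counting error only.

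Most carriers were low. Over a whole library the median level of the genes measured was 10.7 to 14.7 CPM, and only 1 or 2 genes per library passed 100 CPM: Slc16a3 and Slc40a1. By substrate group the median level was 14.7 CPM for iron and other metals, 14.4 for amino acids and peptides, 14.4 for sugars, 13.6 for monocarboxylates and organic ions, 13.3 for nucleosides, vitamins and choline, 10.9 for inorganic ions and 10.9 for mitochondrial carriers. Within classes the highest levels were far above these whole-library values, up to 2437 CPM. In the comparisons of Tim3-KD with Ctrl below, all Slc genes that a site's matrix held passed the minimum of 100 UMIs over the whole library. A fixed rule chose the genes named by value, and the 33 it left out stood at 2.09 to 56.4 CPM over whole libraries (median 10.9). In those comparisons, 0 of the 8 that micrometastasis held and 0 of the 5 that macrometastasis held passed 2-fold, and in AT 7 of 32 were higher, against 32.5% of all genes, and 0 lower, against 9.42%.

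**Figure D1:**
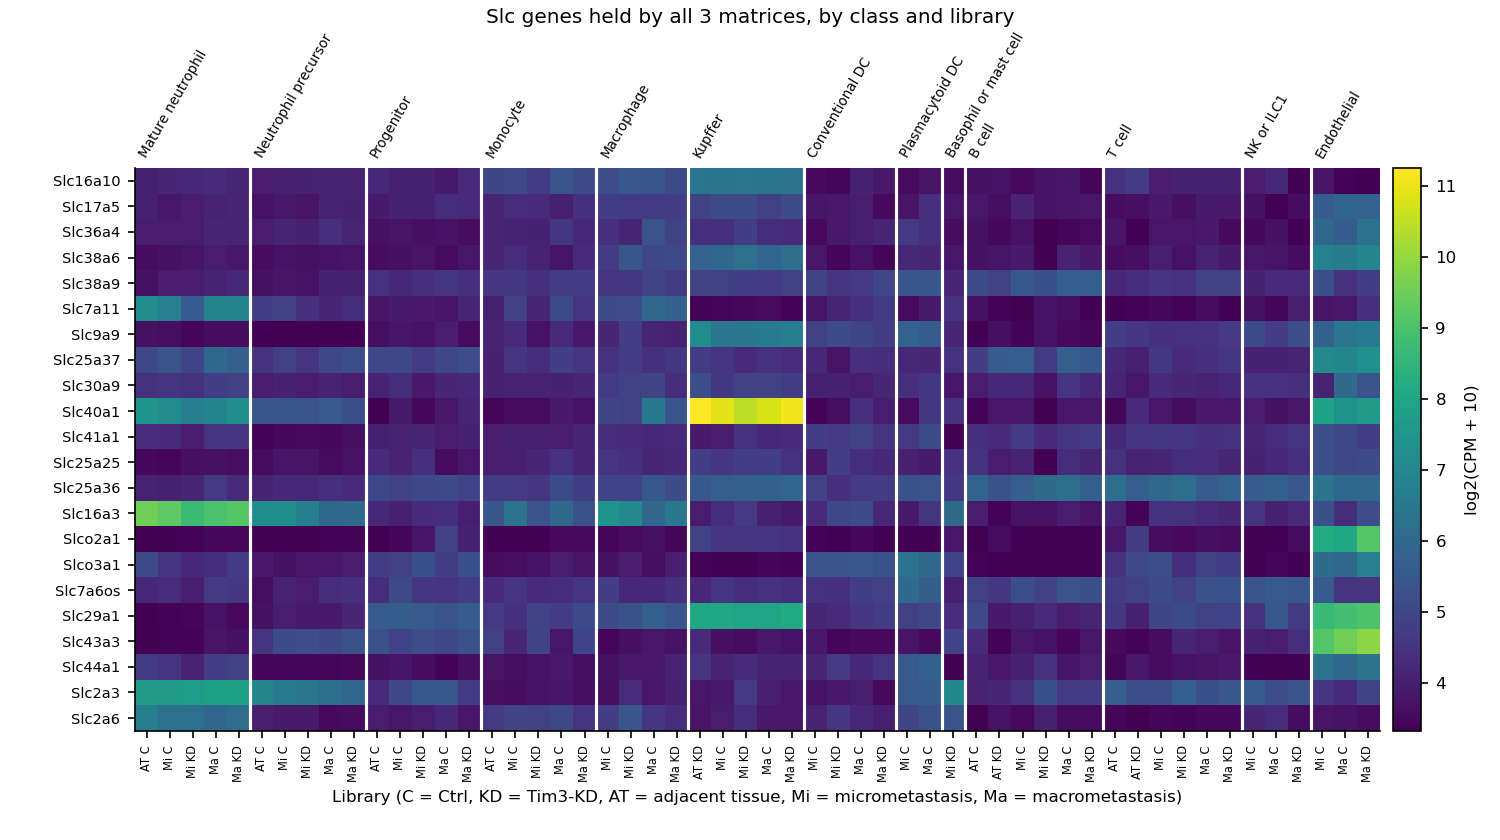
Level of the 22 Slc genes held by all 3 matrices (rows, ordered by substrate group) in each class and library with at least 50 cells (columns), as log2(CPM + 10). Slc40a1 stands out in Kupffer cells, Slc16a3, Slc2a3 and Slc7a11 in mature neutrophils, and Slc43a3, Slco2a1 and Slc29a1 in endothelial cells, in each library shown.

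Among the metal carriers, Slc40a1 (ferroportin, the iron exporter, chromosome 1, 45908070 to 45926532) gave the highest level of any carrier. In Kupffer cells, the resident macrophages of liver, it stood at 2437 CPM (2359 to 2517) in AT Tim3-KD, 1925 (1870 to 1980) in micrometastasis Ctrl, 1398 (1351 to 1448) in micrometastasis Tim3-KD, 1744 (1715 to 1774) in macrometastasis Ctrl and 2150.0 (2122 to 2178) in macrometastasis Tim3-KD. Between 98.4% and 100% of Kupffer cells held a Slc40a1 UMI. A second, lower level was seen in mature neutrophils, at 166 CPM in AT Ctrl, 132 and 94.5 in micrometastasis Ctrl and Tim3-KD, and at day 12 109 (Ctrl) and 142 (Tim3-KD), with 46.8% to 55.2% of cells holding a UMI. Endothelial cells reached 235 CPM in micrometastasis Ctrl, and 160 and 184 in the Ctrl and Tim3-KD libraries of macrometastasis. Neutrophil precursors held 27.5 to 36.0 CPM, and B cells and monocytes of the same libraries held 0 to 4.60 CPM, so the order was Kupffer cells, then endothelial cells and mature neutrophils, then precursors. Lesion macrophages were uneven, at 21.5, 19.3, 81.9 and 32.1 CPM in micrometastasis Ctrl and Tim3-KD and macrometastasis Ctrl and Tim3-KD, in that order.

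**Figure D2:**
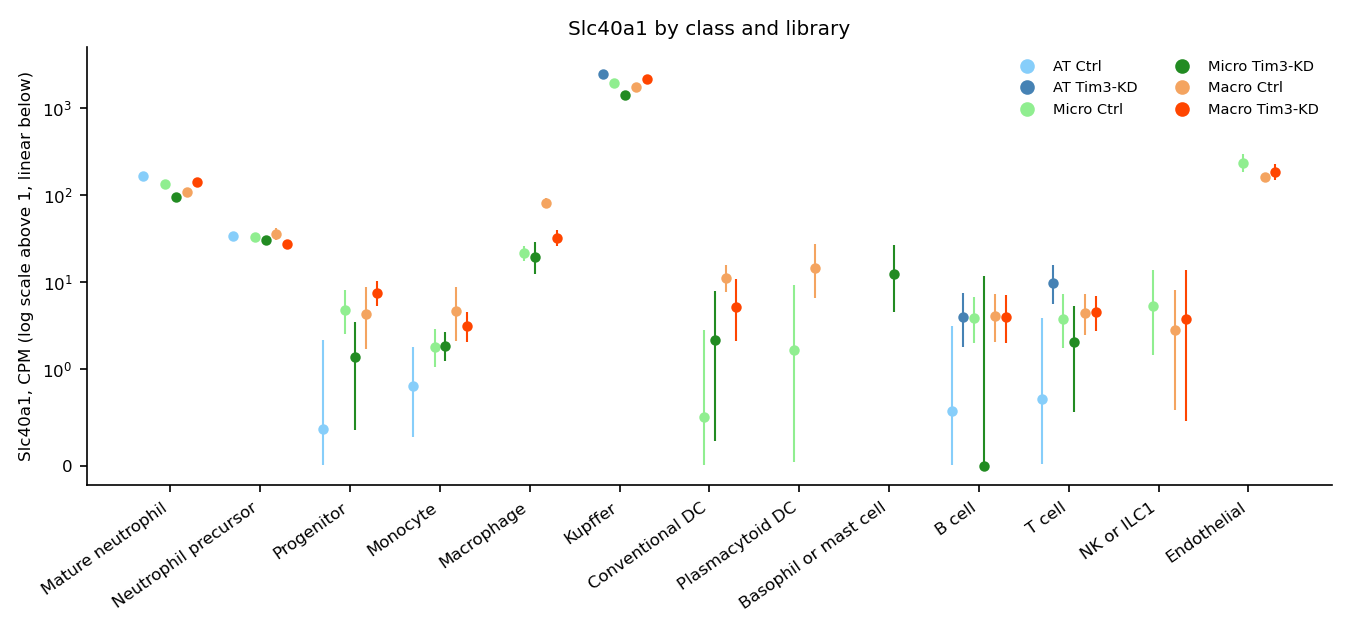
Slc40a1 in CPM (vertical axis, logarithmic above 1 and linear below) by class and library, with exact Poisson 95% intervals, for classes of at least 50 cells. The Kupffer points lie between 1398 and 2437 CPM, mature neutrophils and endothelial cells between 94.5 and 235, and B cells at or under 4.1.

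The other metal carriers were lower. Slc48a1, which moves heme out of the phagolysosome, was highest in Kupffer cells at 161 to 236 CPM, and stood at 4.34 to 8.82 in mature neutrophils. Slc11a1 (NRAMP1, which removes metal ions from the phagosome) was held by the AT matrix only, with 295 CPM in Kupffer cells of the Tim3-KD library and 140 in mature neutrophils of the Ctrl library. Slc25a37 (mitoferrin 1, the mitochondrial iron importer) was highest in endothelial cells, at 111 to 149 CPM, and stood at 20.4 to 54.1 CPM in mature neutrophils, lowest in micrometastasis Tim3-KD and highest in macrometastasis Ctrl. Slc39a8, a zinc importer, was held in 2 matrices and was endothelial in macrometastasis, at 238 and 216 CPM. The copper carriers Slc31a1 and Slc31a2 stood at 40.5 and 47.1 CPM in mature neutrophils of AT Ctrl and at 33.6 and 56.0 in Kupffer cells of AT Tim3-KD.

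Of the carriers of monocarboxylates and organic ions, Slc16a3 (MCT4, the lactate exporter, chromosome 11, 120948484 to 120959000) marked mature neutrophils. Its level there was 732 CPM (705 to 760.0) in AT Ctrl, 618 (603 to 633) and 423 (413 to 435) in micrometastasis Ctrl and Tim3-KD, and 507 (494 to 519) and 568 (556 to 580.0) in the Ctrl and Tim3-KD libraries of macrometastasis. It was found in 83.8% to 88.0% of these cells, against 0.510% to 3.47% of B cells. Neutrophil precursors held 53.3 to 143 CPM and lesion macrophages 51.7 to 157, so the order was mature neutrophils above both, in every library that held these classes. Slc22a15, an organic cation carrier, followed the same class, with 87.4, 79.7 and 61.1 CPM in mature neutrophils of AT Ctrl and micrometastasis Ctrl and Tim3-KD. Slc27a4, a fatty acid carrier, stood at 43.2 CPM in mature neutrophils and 33.0 in neutrophil precursors of AT Ctrl. Slco2a1 (the prostaglandin carrier) was endothelial, at 284 CPM in micrometastasis Ctrl and 257 and 548 in the Ctrl and Tim3-KD libraries of macrometastasis, and stood at 12.3 to 19.8 in Kupffer cells. Slco3a1, an organic anion carrier, stood at 60.7 CPM in plasmacytoid dendritic cells of micrometastasis and 54.9 in those of macrometastasis with both libraries summed, and at 99.6 CPM in endothelial cells of macrometastasis Tim3-KD.

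Among sugar carriers, Slc2a3 (GLUT3) was the neutrophil gene. Mature neutrophils held 185 CPM in AT Ctrl, 188 and 201 in micrometastasis Ctrl and Tim3-KD, and 220.0 and 218 in the Ctrl and Tim3-KD libraries of macrometastasis, and these 5 levels span less than those of Slc16a3 or Slc7a11. Neutrophil precursors followed at 50.1 to 112 CPM, and basophils or mast cells of micrometastasis Tim3-KD held 120 CPM. Monocytes of the same libraries held 2.11 to 3.58 CPM. Slc2a1 (GLUT1), which only the AT matrix held, was highest in mature neutrophils too, at 91.9 CPM in AT Ctrl against 7.96 to 20.4 in the other classes of both AT libraries. Slc2a6 (GLUT6, a lysosomal hexose carrier) stood at 96.1 CPM in mature neutrophils of AT Ctrl and 51.0 to 64.7 in those of the lesions. The nucleotide sugar carriers of the Slc35 family were low and spread over classes: Slc35c2 stood at 51.1 CPM in monocytes of AT Ctrl and 42.8 in Kupffer cells of AT Tim3-KD, Slc35f6 at 29.2 and 72.4 in the same cells, and Slc35d1 at 14.3 CPM in T cells of macrometastasis. The sugar phosphate carrier Slc37a3 stood at 10.4 CPM in those T cells and at 12.6 and 16.4 in mature neutrophils of that site.

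The amino acid carriers fell into several cell types. Slc7a11 (xCT, the cystine and glutamate exchanger, whose promoter is printed above, gene at chromosome 3, 50364936 to 50499087) was a gene of mature neutrophils, at 140 CPM (128 to 152) in AT Ctrl, 100 (94.3 to 106) in micrometastasis Ctrl, 38.8 (35.5 to 42.3) in micrometastasis Tim3-KD, 109 (103 to 114) in macrometastasis Ctrl and 109 (104 to 115) in macrometastasis Tim3-KD. The micrometastasis Tim3-KD library was the low one, and its interval lay below those of the other 4. Lesion macrophages came next, at 25.7 and 26.9 CPM in micrometastasis and 52.1 and 45.3 in macrometastasis. Kupffer cells held 0.572 to 1.82 CPM and B cells 0 to 3.14. Slc3a2, the partner chain of Slc7a11, was not in the 3 matrices, nor were Slc7a2, Slc1a5 and Slc6a4.

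Kupffer cells held the carriers of cationic and neutral amino acids Slc7a7 (176 to 221 CPM) and Slc7a8 (174 to 234 CPM), and Slc16a10, a carrier of aromatic amino acids, at 72.3 to 77.0 CPM in 5 libraries. Slc7a8 was as high in basophils or mast cells, at 196 CPM (159 to 239) in micrometastasis Tim3-KD, the only library with 50 of them, where Slc7a5 (LAT1, a carrier of large neutral amino acids) stood at 71.4 CPM, against 48.1 in plasmacytoid dendritic cells of micrometastasis Ctrl. Slc15a3, a lysosomal peptide and histidine carrier of the AT matrix, stood at 354 CPM in mature neutrophils of AT Ctrl and 355 in Kupffer cells of AT Tim3-KD. Its relative Slc15a4 stood at 35.6 CPM in the latter and 27.8 in B cells of AT. In micrometastasis the glutamine carriers were higher in lymphocytes than in mature neutrophils. Slc38a1 was 88.0 to 126 CPM in B and T cells of micrometastasis, 229 in plasmacytoid dendritic cells of micrometastasis Ctrl and 20.2 to 25.6 in mature neutrophils of both libraries, while in AT Ctrl it was 78.4 in mature neutrophils, 98.5 in B cells and 111 in T cells. Slc38a2 was 112 to 189 CPM in the same lymphocytes, 57.7 to 59.8 in those neutrophils and 302 in endothelial cells of micrometastasis Ctrl. Slc38a6, a relative named after its values were seen, was highest in endothelial cells at 90.4 to 111 CPM. By contrast Slc38a9, the lysosomal arginine sensor, was highest in B cells, at 22.1, 34.5 and 41.3 CPM in the 3 matrices. Slc7a1, a cationic amino acid carrier, stood at 30.5 CPM in progenitors of AT and 37.5 in NK cells or ILC1 of macrometastasis.

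The highest carriers of nucleosides and nucleobases were endothelial. Slc43a3 (a purine nucleobase carrier, chromosome 2, 84936545 to 84958509) stood in endothelial cells at 554 CPM (471 to 648) in micrometastasis Ctrl, and 734 (693 to 776) and 927 (846 to 1014) in the Ctrl and Tim3-KD libraries of macrometastasis. There Slc29a1 (ENT1, the equilibrative nucleoside carrier) stood at 417, 459.6 and 521 CPM, and in Kupffer cells at 238 to 276. Mature neutrophils held 0 to 3.00 CPM of it and 0.263 to 3.47 of Slc43a3. Slc28a2 (a concentrative nucleoside carrier) was spread more evenly, at 47.6 to 72.8 CPM in mature neutrophils. It lies beside its near copy Slc28a2b on chromosome 2 (Slc28a2b at 19.3 to 36.3 CPM in mature neutrophils), so how reads were split between them is uncertain. Slc44a1, a choline carrier, stood at 53.5 to 73.7 CPM in endothelial cells, and with both libraries of a site summed at 45.5 and 49.7 CPM in plasmacytoid dendritic cells of micrometastasis and macrometastasis. Slc49a4 stood at 116 CPM in plasmacytoid dendritic cells of micrometastasis, likewise summed.

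The 13 carriers of inorganic ions and the 8 mitochondrial carriers had the lowest medians. Slc9a9, an endosomal sodium and proton exchanger, stood at 76.4 to 134 CPM in Kupffer cells and at 84.3 in endothelial cells of macrometastasis Tim3-KD. The potassium and chloride cotransporter Slc12a7 stood at 48.9 to 58.3 in Kupffer cells and at 49.1 in endothelial cells of micrometastasis Ctrl. Slc12a2, the sodium, potassium and chloride cotransporter, stood at 21.3 CPM in conventional dendritic cells of macrometastasis with both libraries summed, and at 22.0 and 24.2 in Kupffer cells of its Ctrl and Tim3-KD libraries. Slc4a7, a sodium and bicarbonate cotransporter, stood at 33.9 CPM in conventional dendritic cells of micrometastasis, and at 30.1 in T cells of its Ctrl library. Slc41a1, a magnesium carrier, stood at 16.6 and 17.2 CPM in conventional dendritic cells of micrometastasis and macrometastasis, and at 28.1 in endothelial cells of micrometastasis Ctrl on 8 UMIs. Slc25a36, which carries pyrimidine nucleotides, stood at 51.2, 57.3 and 43.6 CPM in T cells of the 3 matrices and at 43.7 and 52.3 in B cells of the lesions, and Slc25a30 stood at 19.6 CPM in monocytes of macrometastasis beside 24.9 and 27.3 in endothelial cells. Slc24a5 stood at 34.5 and 42.8 CPM in endothelial cells of macrometastasis and at 13.7 in B cells. Of the genes that are no carriers, Slc9a3r2 was endothelial at 122 and 146 CPM in macrometastasis, Slc7a6os stood at 53.8 CPM in plasmacytoid dendritic cells of the same site, and Slc4a1ap was spread over B cells, NK cells or ILC1 and endothelial cells there, at 26.8 to 32.6 CPM.

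The comparison of Tim3-KD with Ctrl in micrometastasis asks how immune cells around small lesions differ when Tim3 is knocked down in the tumor cells. Over the whole library, 0 of 39 Slc genes were higher, against 0.647% of all genes tested, and 1 was lower, against 17.9%. That one was Slc7a11, at 14.5 CPM in Tim3-KD and 31.1 in Ctrl (ratio 0.47, 95% interval 0.43 to 0.50). The 4 next lowest were Slc9a9 (0.52), Slc7a6os (0.54), Slc7a8 (0.55) and Slc41a1 (0.56), and the highest were Slc43a3 (1.44), Slc7a5 (1.17), Slc2a3 (1.13), Slc28a2 (1.06) and Slc28a2b (1.01). The Slc genes' median log2 ratio was −0.41, and the trimmed mean over all genes −0.44, and with that mean set to 0 Slc7a11 stood at 0.63 and 0 Slc genes were beyond 2-fold. No share of all genes past 2-fold was taken with the trimmed mean set to 0, here or in the comparisons below. By substrate the median ratio was 0.60 for inorganic ions, 0.71 for monocarboxylates and organic ions, 0.72 for metals, 0.75 for amino acids, 0.90 for sugars and 0.92 for nucleosides and vitamins. Fewer cells of a type and less RNA per cell cannot be told apart in such sums. When all 13 classes were given the same share of UMIs in both libraries, Slc7a11 alone stayed beyond 2-fold, at 0.48, with 0.647% of all genes higher and 1.90% lower.

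**Figure D3:**
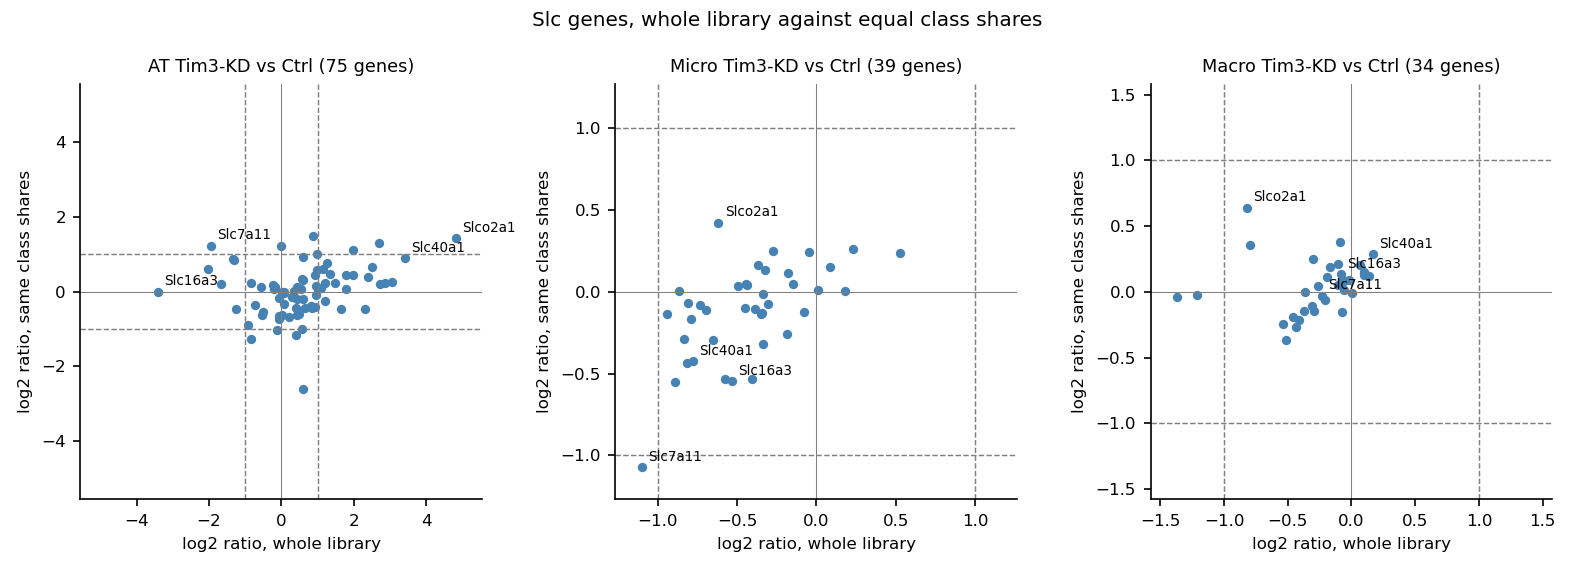
Log2 ratio of Tim3-KD to Ctrl for each Slc gene with at least 100 UMIs, over the whole library (horizontal) and with classes at the same shares in both libraries (vertical), for AT (75 genes), micrometastasis (39) and macrometastasis (34). Dashed lines mark 2-fold. In micrometastasis only Slc7a11 lies beyond the line on both axes.

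Within mature neutrophils of micrometastasis, 2 of 29 Slc genes were lower in Tim3-KD, against 3.35% of genes: Slc7a11 at 38.8 against 100 CPM (0.39, 0.35 to 0.43) and Slc48a1 at 4.34 against 8.82 CPM (0.49, 0.35 to 0.69). Slc7a11 UMIs were held by 358 of 1658 Tim3-KD neutrophils (21.6%) and 550 of 1484 Ctrl neutrophils (37.1%) at a median of 5817.5 and 5756.5 UMIs per cell. Nearly all cells of the class lay in clusters 0 and 2, with 1225 and 423 cells in Tim3-KD and 787 and 686 in Ctrl, and the ratio was below 1 in both: 0.53 (34.1 against 64.3 CPM) in cluster 0 and 0.38 (60.2 against 157 CPM, interval 0.32 to 0.46) in cluster 2. In the 3 clusters of neutrophil precursors the ratios of Slc7a11 were 0.58, 0.59 and 0.67, while macrophages of the same libraries gave 1.05 (0.68 to 1.56). The summed mature neutrophil markers of this class moved the same way, from 35812 CPM in Ctrl to 27911 in Tim3-KD, and the precursor markers the other way, from 1698 to 2455, and their part in the result was not tested. Slc16a3 was lower by less than 2-fold in each neutrophil cluster, with ratios of 0.72 and 0.68 in clusters 0 and 2, and Slc2a3 stood at 1.07 (1.01 to 1.13) in mature neutrophils. In the precursor cluster led by Ctsg, Elane and Ms4a3, Slc2a3, picked after its values were seen, stood at 3.82 CPM in Tim3-KD and 24.3 in Ctrl (0.16, 0.11 to 0.22), with 33 of 304 and 56 of 119 cells holding a UMI. At a higher clustering resolution, a precursor cluster led by Ctsg, Fkbp11 and Mpo held 264 Tim3-KD and 59 Ctrl cells of micrometastasis. Another, led by histone genes with Elane and Prtn3, held 0 and 69. Makeup may thus differ within this cluster too, and its part in the Slc2a3 ratio was not tested.

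**Figure D4:**
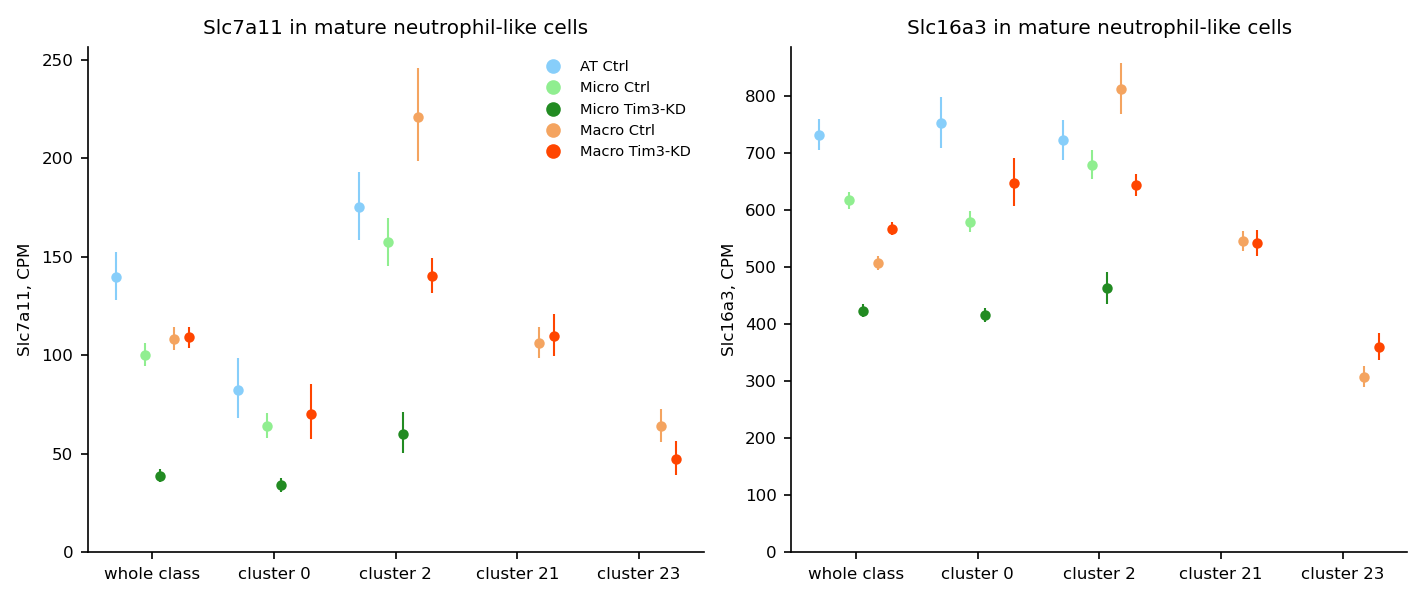
Slc7a11 (left) and Slc16a3 (right) in CPM, with exact Poisson 95% intervals, in mature neutrophil-like cells as a whole and in each of their clusters with at least 50 cells in a library. The micrometastasis Tim3-KD point is the lowest of its column for both genes wherever it is drawn, at 38.8 CPM for Slc7a11 in the whole class.

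Micrometastasis monocytes had 2 Slc genes higher in Tim3-KD, against 4.78% of genes, and 5 lower, against 14.4%, of 33 measured. Slc43a3 (20.8 against 8.14 CPM, 2.56) and Slc7a5 (19.6 against 7.61 CPM, 2.57) were higher. The lower genes were Slc16a3 (31.0 against 70.4 CPM, 0.44), Slc7a11 (7.68 against 19.3 CPM, 0.40), Slc7a7 (24.9 against 50.7 CPM, 0.49), Slc7a8 (1.66 against 9.20 CPM, 0.18) and Slc9a9 (3.14 against 9.09 CPM, 0.35). This class mixes a proliferating cluster 4 (422 cells in Tim3-KD, 103 in Ctrl) and cluster 7 (438 and 617), and its summed neutrophil precursor markers stood at 10883 CPM in Tim3-KD and 3923 in Ctrl. Within clusters the ratios that could be formed were nearer 1. In cluster 4, Slc43a3 stood at 1.08, Slc7a5 at 1.44 and Slc16a3 at 0.60, and in cluster 7, Slc7a11 stood at 0.86 (0.64 to 1.14), Slc7a7 at 0.78 and Slc16a3 at 0.75. Slc28a2 went the other way in cluster 7, at 35.6 CPM in Tim3-KD and 14.6 in Ctrl (2.44, 1.86 to 3.22). Makeup may differ within cluster 7 as well. At a higher clustering resolution, a monocyte cluster led by Thbs1, Ms4a4c and Ccr2 held 388 Tim3-KD and 419 Ctrl cells of micrometastasis. One led by Sdc4, Ms4a6d and Ccl24 held 55 and 587, and the part of this split in the ratios was not tested.

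Lesion macrophages of micrometastasis had 2 of 19 Slc genes higher in Tim3-KD, against 14.4% of genes, and 0 lower, against 6.72%. Slc28a2 stood at 10.7 CPM (7.92 to 14.2) in Ctrl and 64.8 (51.1 to 80.9) in Tim3-KD, a ratio of 6.03 (4.15 to 8.83), held by 9.09% of 407 and 38.1% of 139 cells. Slc38a6 stood at 33.6 CPM in Tim3-KD and 16.3 in Ctrl (2.06). The makeup of the class differed between the libraries. When cells under 3000 UMIs were left out, it split into a cluster led by Pf4, Thbs1 and Ctsl, with 3 cells in Ctrl and 65 in Tim3-KD, and one led by Sdc4, Ccl24 and Spp1, with 387 and 57. Within the latter, Slc28a2 was 67.6 CPM in Tim3-KD and 11.1 in Ctrl, and in the former it was 64.7 in Tim3-KD. Slc38a6 was 16.7 CPM in Ctrl and no higher in Tim3-KD within the latter, and 55.7 in the former, so its 2-fold gap did not hold within the cluster that both libraries filled. These clusters were examined after the values of the class were seen. At a higher clustering resolution no cluster was named macrophage, and the cells led by Pf4, Cxcl1 and Alb took the name of hepatocytes by their markers. In macrometastasis the macrophage levels of Slc28a2 were 15.1 CPM in Ctrl and 18.2 in Tim3-KD, so the micrometastasis Tim3-KD value was the high one of the 4. The micrometastasis Tim3-KD macrophages also held more UMIs of Kupffer markers, 9831 against 2379 CPM in Ctrl, and Kupffer cells of that library held 22.6 CPM of Slc28a2, below the 64.8 of its macrophages. Neutrophil precursors of micrometastasis had 0 of 33 Slc genes beyond 2-fold, against 0.891% of genes higher and 1.73% lower. Kupffer cells had 0 of 17, against 2.65% and 0.642%, and T cells 0 of 6, against 3.37% and 3.16%, so these counts lie near the background. Kupffer Slc40a1 was 1398 CPM in Tim3-KD and 1925 in Ctrl, a ratio of 0.73 (0.69 to 0.76).

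In macrometastasis at day 12, the same comparison gave 0 of 34 Slc genes higher over the whole library, against 2.08% of genes, and 2 lower, against 10.3%. These were Slc9a3r2 (2.69 against 6.97 CPM, 0.39, 0.32 to 0.47) and Slc39a8 (5.01 against 11.6 CPM, 0.43, 0.37 to 0.50), followed by Slco2a1 (0.57), Slc43a3 (0.58) and Slc37a3 (0.69), so 1 of the pair, Slc39a8, is a carrier itself. With the trimmed mean over all genes set to 0, Slc9a3r2 alone stayed past 2-fold (0.47), and Slc39a8 stood at 0.52. The first 4 were at their highest in the endothelial class, which held 133 cells in Tim3-KD and 346 in Ctrl, and at the same class shares Slc9a3r2 stood at 0.97 and Slc39a8 at 0.98, while Slco2a1 and Slc43a3 turned to 1.56 and 1.28. At those shares 0 Slc genes were beyond 2-fold, against 0.964% of genes higher and 0.578% lower. The highest were Slc40a1 (1.12), Slc28a2 (1.10), Slc4a1ap (1.07), Slc35d1 (1.07) and Slc17a5 (1.05), the last a lysosomal sialic acid carrier. By substrate the median ratio lay between 0.81 for metals and 0.95 for amino acids. Within 8 classes, 121 ratios of a Slc gene in a class could be formed. Of these, 2 were higher, against 1.07% to 10.8% of all genes by class, and 1 lower, against 0.578% to 18.8%.

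The 3 were Slco2a1, Slc43a3 and Slc40a1. Endothelial Slco2a1 was 548 CPM (486 to 615) in Tim3-KD and 257 (234 to 283) in Ctrl, a ratio of 2.13 (1.83 to 2.48), against 2.91% of genes higher in that class. It was held by 70.7% and 55.2% of cells. Without cells under 3000 UMIs the class split in 2, and in the cluster led by Clec4g, Ptprb and Kdr, with 63 Tim3-KD and 260 Ctrl cells, Slco2a1 was 616 against 249 CPM, while the cluster led by Fabp4, Timp3 and Adamts1 held 24 and 41 cells, too few for a level, a split also examined after the values were seen. For the same cells summed mature neutrophil markers in that class were 2427 CPM (Tim3-KD) and 542 CPM (Ctrl), and endothelial markers 32096 and 31297, and their part in the result was not tested. Monocyte Slc43a3 was 20.1 against 4.09 CPM (4.90, 2.43 to 11.5), against 10.8% of genes, on 8 UMIs in Ctrl, and the proliferating cluster 4 held 139 of the 363 Tim3-KD monocytes and 9 of the 166 Ctrl ones. Macrophage Slc40a1 was 32.1 against 81.9 CPM (0.39, 0.31 to 0.50), against 4.31% of genes lower, at a summed Kupffer marker level of 7971 and 8568 CPM. In the macrophage cluster led by Pf4, Thbs1 and Ctsl, which held 193 and 184 cells of these libraries, it was 36.8 against 85.6 CPM.

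**Figure D5:**
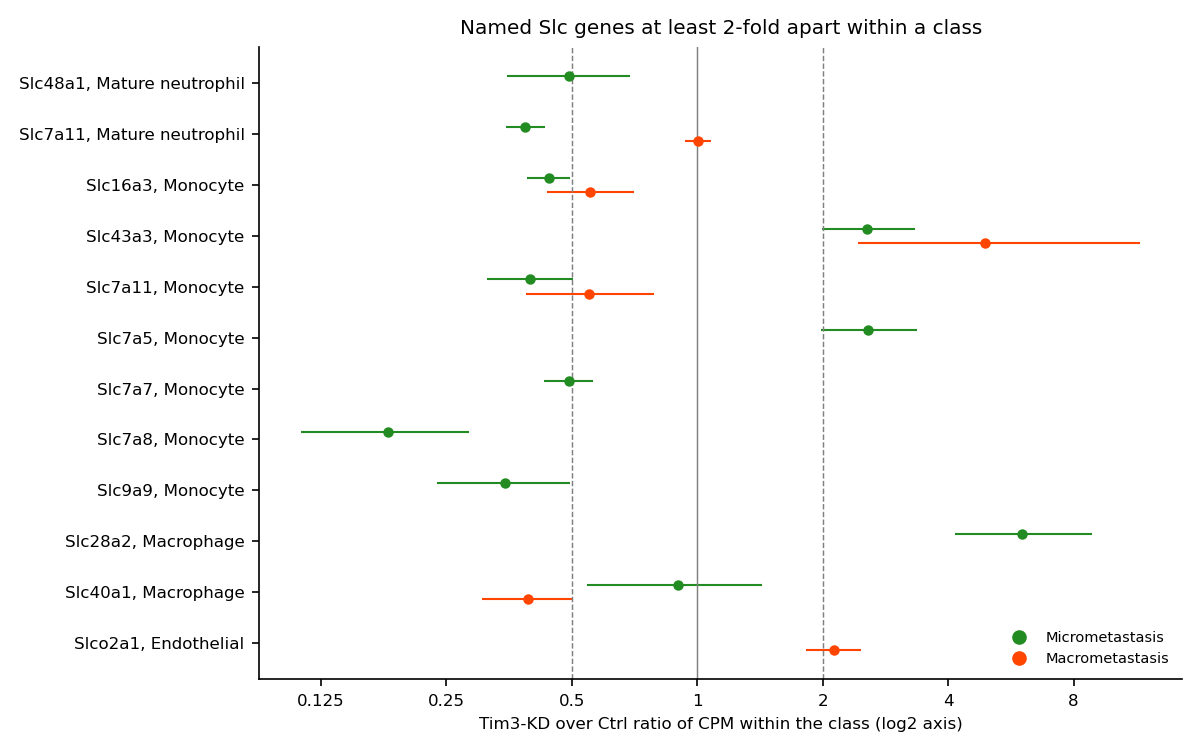
Ratio of Tim3-KD to Ctrl (horizontal, log2 axis, with exact 95% intervals) for each named Slc gene that was at least 2-fold apart within a class at either site, with both sites drawn where at least 100 UMIs were counted in classes of at least 100 cells. Dashed lines mark ratios of 0.5 and 2. Slc7a11 in mature neutrophils lies at 0.39 in micrometastasis and 1.01 in macrometastasis.

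Slc7a11 in mature neutrophils of macrometastasis was 109 CPM in both libraries (1.01, 0.94 to 1.08). Its clusters gave other values. Cluster 2, led by Steap4, Acod1 and G0s2, with 214 cells in Ctrl and 854 in Tim3-KD, gave 0.63 (140 against 221 CPM, interval 0.56 to 0.72), cluster 21 gave 1.03 (1107 and 763 cells) and cluster 23 gave 0.74 (303 and 249 cells). Cluster 2, the one with the highest Slc7a11, held more of the Tim3-KD class than of the Ctrl class, and Slc7a11 within it was lower in Tim3-KD at both sites.

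The AT comparison sets 2 libraries of unlike makeup side by side. In Tim3-KD, 22 of 75 Slc genes were higher, against 32.5% of genes, and 7 lower, against 9.42%. The highest were those of Kupffer and endothelial cells: Slco2a1 (14.8 against 0.523 CPM, 28.4), Slc40a1 (546 against 51.3 CPM, 10.6), Slc7a8 (8.37), Slc9a9 (7.24) and Slc12a7 (6.59). The lowest were those of mature neutrophils: Slc16a3 (14.96 against 158 CPM, 0.095), Slc2a3 (0.24), Slc7a11 (0.26), Slc2a6 (0.31) and Slc22a15 (0.40), with Slc27a4 (0.40) and Slc2a1 (0.42) the other 2 past 2-fold. By substrate, 6 of 12 metal carriers and 7 of 15 amino acid carriers were higher, and 3 of 5 carriers of monocarboxylates and organic ions and 3 of 14 sugar carriers lower. With the trimmed mean over all genes set to 0, the split was 14 higher and 14 lower, with no share of all genes taken at that setting. At the same shares of 8 classes, 9 of the 29 lay on the other side of 1. Among them Slc16a3 stood at 1.00, Slc2a3 at 1.53, Slc2a6 at 1.153, Slc22a15 at 1.84, Slc27a4 at 1.79 and Slc7a11 at 2.36, and of the higher genes Slc29a1 at 0.72, Slc38a6 at 0.73 and Slc39a1, a zinc importer named after its values were seen, at 0.84. At these shares 7 Slc genes were higher, against 5.63%, and 4 lower, against 6.83%, and these values rest on 19 mature neutrophils and 17 monocytes of Tim3-KD. Only B and T cells had 100 cells in both libraries, and 1 of 8 Slc gene ratios there passed 2-fold: Slc25a37 in B cells, at 39.8 against 17.0 CPM (2.34, 1.53 to 3.67), against 5.75% of genes.

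Ctrl micrometastasis against Ctrl AT, both at day 3, sets the lesion beside liver next to it. Of 37 Slc genes, 5 were higher, against 12.6% of genes, and 0 lower, against 0.177%. These were Slco2a1 (4.48), Slc7a8 (2.62), Slc40a1 (124 against 51.3 CPM, 2.43), Slc12a7 (2.10) and Slc48a1 (2.03), and Kupffer cells made up 275 of 5106 cells in micrometastasis and 31 of 1803 in AT. The lowest were Slc2a3 (0.93), Slc28a2b (0.97), Slco3a1 (0.97), Slc25a36 (1.02) and Slc38a1 (1.04). At the same shares of 11 classes, 0 passed 2-fold, against 2.71% of genes higher and 0.399% lower, and with the trimmed mean over all genes set to 0, 2 did.

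Within 5 classes, 84 ratios could be formed. In the lesion 8 were higher, against 2.76% to 14.2% of all genes by class, and 3 lower, against 0.806% to 4.89%. Within mature neutrophils, Slc7a7 was higher (8.44 against 3.95 CPM, 2.14), against 4.26% of genes, and Slc38a1 (25.6 against 78.4 CPM, 0.33) and Slc49a4 (5.38 against 11.6 CPM, 0.46) were lower, against 4.89%. The class was made up differently, with clusters 0 and 2 holding 787 and 686 of 1484 cells in micrometastasis and 138 and 435 of 574 in AT, and within cluster 2 Slc38a1 stood at 54.1 against 118 CPM (0.46). Monocytes had 4 of 28 Slc genes higher, against 8.96%: Slc7a11 (19.3 against 6.31 CPM, 3.07), Slc7a8 (2.48), Slc16a3 (70.4 against 33.3 CPM, 2.11) and Slc25a37 (2.03). Slc43a3 was lower there (8.14 against 18.1 CPM, 0.45), against 2.23%. In neutrophil precursors Slc48a1 (37.2 against 15.03 CPM, 2.48) and Slc7a6os (6.76 against 2.23 CPM, 3.03) were higher, against 14.2% of genes. The precursor cluster led by Ctsg, Elane and Ms4a3 held 119 of 532 of these cells in micrometastasis and 11 of 340 in AT, and in the one led by Fcnb, Orm1 and Cebpe, Slc48a1 stood at 23.4 against 18.0 CPM (1.30). In B cells Slc25a37 was higher (42.1 against 17.0 CPM, 2.48), against 2.76%. The proliferating cluster 4 made up 103 of 720 monocytes in micrometastasis and 101 of 260 in AT.

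Ctrl macrometastasis against Ctrl micrometastasis follows the lesion from day 3 to day 12, with time and lesion size changing together. Of 23 Slc genes, 6 were higher, against 21.8% of genes, and 0 lower, against 3.97%. They were Slco2a1 (5.98), Slc29a1 (70.0 against 23.2 CPM, 3.02), Slc40a1 (357 against 124 CPM, 2.87), Slc9a9 (2.76), Slc43a3 (2.52) and Slc38a6 (2.10), and Kupffer and endothelial cells were 804 and 346 of 4913 cells against 275 and 78 of 5106. The lowest were Slc16a3 (0.88), Slc2a6 (0.97), Slc28a2 (0.97), Slc2a3 (1.16) and Slc7a6os (1.21). At the same shares of 12 classes, 0 passed 2-fold, against 2.61% of genes higher and 1.87% lower, and with the trimmed mean over all genes set to 0, 2 did. At the same shares Slc40a1 stood at 0.92 and Slc38a6 at 0.99.

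Within 8 classes, 85 ratios could be formed. At day 12, 5 were higher, against 1.66% to 23.0% of all genes by class, and 5 lower, against 0.498% to 17.2%. Mature neutrophils had 1 of 18 Slc genes higher, Slc25a36 (14.8 against 6.31 CPM, 2.35), against 23.0% of genes, and 1107 and 303 of the 1655 cells sat in clusters 21 and 23 at day 12 against 9 and 2 of 1484 at day 3. In monocytes Slc38a6 was lower (3.58 against 10.1 CPM, 0.35), against 5.35%, on 7 UMIs at day 12. In macrophages Slc40a1 (81.9 against 21.5 CPM, 3.81), Slc36a4, a lysosomal and plasma membrane amino acid carrier (31.3 against 11.2 CPM, 2.79), and Slc7a11 (52.1 against 25.7 CPM, 2.02) were higher, against 18.7%. Slc16a3 (51.7 against 157 CPM, 0.33) and Slc7a6os (8.27 against 17.2 CPM, 0.48) were lower there, against 17.2%, at summed Kupffer markers of 8568 and 2379 CPM. The macrophages of these libraries lay in nearly separate clusters once cells under 3000 UMIs were left out, with 184 and 3 cells in the one led by Pf4, Thbs1 and Ctsl and 29 and 387 in the one led by Sdc4, Ccl24 and Spp1, so time and makeup of the class cannot be told apart there. In neutrophil precursors Slc16a3 (53.3 against 138 CPM, 0.39) and Slc7a11 (8.08 against 19.8 CPM, 0.41) were lower, against 8.62% of genes. The precursor clusters 1, 3 and 18 held 33, 48 and 34 cells at day 12 and 245, 168 and 119 at day 3, too few at day 12 for a level in each, and at day 3 Slc16a3 stood at 304, 119 and 34.4 CPM in them. In conventional dendritic cells Slc16a3 was higher (26.2 against 9.15 CPM, 2.86), against 6.46%, on 18 UMIs at day 3. Both Ctrl comparisons and those of Tim3-KD share the Ctrl libraries and are not independent.

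Genes of the same pathways that are no solute carriers were counted in lists written with earlier results in view, and their counts stand beside the shares of all genes given above: 0.647% higher and 17.9% lower in micrometastasis, 2.08% and 10.3% in macrometastasis, 32.5% and 9.42% in AT, 12.6% and 0.177% for micrometastasis against AT and 21.8% and 3.97% for macrometastasis against micrometastasis. In micrometastasis Tim3-KD against Ctrl, 0 of 7 iron genes, 0 of 5 genes of amino acid and glutathione use, 1 of 4 glucose genes (Vegfa, lower) and 2 of 5 ABC transporters and aquaporins (Abcc3 and Aqp1, lower) passed 2-fold. Within classes of the same libraries the iron genes went both ways. In macrophages 3 of 3 measured were higher in Tim3-KD, against 14.4% of genes, at 438 against 145 CPM for Blvrb (biliverdin reductase B), 599 against 288 for Hmox1 and 892 against 370 for Trf (transferrin), in a class of unlike makeup as said above. In monocytes 2 of 4 were lower, against 14.4%, with Hmox1 at 0.45 and Trf at 0.40, and 0 passed 2-fold in mature neutrophils, precursors, Kupffer cells and T cells. In mature neutrophils, where Slc7a11 was lower, Txnrd1, a thioredoxin reductase, stood at 21.6 against 36.1 CPM (0.60), Nos2, the inducible nitric oxide synthase, at 0.66, and Ddit3, a stress response factor, at 0.98, all within 2-fold. In macrometastasis 1 of 8 iron genes (Steap4, a metalloreductase) and 1 of 6 amino acid genes (Ass1) were higher, 1 of 2 other transporters (Aqp1) lower and 0 of 2 glucose genes past 2-fold. Kupffer Hmox1, heme oxygenase 1, stood at 0.77 in micrometastasis and 1.16 in macrometastasis beside Slc40a1 at 0.73 and 1.23, while Cd163, the receptor for hemoglobin bound to haptoglobin, stood at 1.60 and 1.72. In AT 5 of 7 iron genes were higher (Blvrb, Cd163, Hmox1, Spic and Trf) and 1 lower (Steap4), 0 of 4 glucose genes passed 2-fold and 6 of 10 other transporters were higher, at the Kupffer cell counts given above. Between the Ctrl libraries, 5 of 7 iron genes and 3 of 3 other transporters were higher in micrometastasis than in AT and 1 of 3 amino acid genes lower (Ass1), and 3 of 7 iron genes and 2 of 2 other transporters were higher in macrometastasis than in micrometastasis, with Steap4 lower and 0 glucose genes past 2-fold in either.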

How the data were processed

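CD45+ cells of 6 liver libraries were sequenced with the 10x 3' kit, 1 library per group, each a pool of 2 mice. Reads were trimmed (Trim Galore 0.4.3), aligned with STAR 2.7.7a to GRCm38 and counted over exons and introns, and the authors removed doublets with scrublet before deposit, so no doublet caller was run here. The deposited values are scaled scores: the authors kept variable genes, took the natural log of UMIs per 10000 plus 1, regressed out total UMIs, scaled each gene over both libraries of a site and capped scores at 10. These steps were inverted here. Of the recovered values, 99.997% or more lay within 0.05 of a whole number, and 0.144% to 0.160% were at the cap, where UMIs are lower bounds. Totals cover all genes of a cell. Total UMIs were 7086531 to 79971732 per library. Inversion and ratios were tested on simulated data for the AT comparison (4486 genes), where 100 of 100 genes raised 4-fold, 100 of 100 lowered 4-fold and 4 of 4257 unchanged genes were called. Simulated scores were made by the same model that was inverted, and the changed genes were drawn from those with many UMIs. Both simulated libraries had 1 common rate per unchanged gene, with no cell classes and no difference between animals. The test thus checks the arithmetic and gives no rate of false calls for the real libraries.

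Cells were clustered on 1620 of the 1642 shared genes, without the Slc genes (30 principal components, 15 neighbours, Leiden resolution 1), and clusters were named from markers. Levels are given for classes of at least 50 cells and ratios for classes of at least 100. Ratios at the same class shares weight classes of at least 10 cells in both libraries by their mean share of UMIs. Named genes are the 5 highest and 5 lowest ratios of each comparison, the 3 genes most raised in each class and the genes listed for their known roles, 49 in all, and genes named otherwise are said to be. The lists of other genes covered iron handling, glucose and lactate use, amino acid and glutathione use, and ABC transporters and aquaporins. The genes and lists were chosen with earlier results of these data known. Intervals cover counting error only. Python 3.11.15 was used with numpy 2.4.6, pandas 2.3.3, scipy 1.17.1, scanpy 1.11.5 and matplotlib 3.10.9. Alternatives changed the scaling, the UMI minimum, the cell minimum, the cap, the clustering and the class shares. The counts of the genes of amino acid and glutathione use in AT and between the Ctrl libraries of the lesions are not reported here.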

Additional observations from a re-analysis of the deposited data

Results flagged for a closer look

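Of 58 pairs of a Slc gene and a class with a ratio of Tim3-KD to Ctrl at both lesion sites, 6 lay below 1 in micrometastasis and above 1 in macrometastasis with both counting intervals clear of 1 (10.3%), against 6.87% of the 4539 pairs of any gene and the same 6 classes. Each is 1 library against 1, and the difference between the sites was not tested. Slc40a1 stood at 0.73 in micrometastasis and 1.23 in macrometastasis in Kupffer cells, and at 0.72 and 1.25 in the larger Kupffer cluster. In mature neutrophils Slc40a1 stood at 0.71 and 1.31, Slc16a3 at 0.69 and 1.12, Slc28a2 at 0.80 and 1.37, and Slco3a1 at 0.64 and 1.56.

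The neutrophil clusters that make up this class differ between the libraries. In macrometastasis, cluster 2 held 854 of 2015 Tim3-KD and 214 of 1655 Ctrl neutrophils, and in micrometastasis 423 of 1658 and 686 of 1484. Within clusters 2, 21 and 23 of macrometastasis, Slc40a1 stood at 1.09, 0.93 and 0.91, Slc16a3 at 0.79, 0.99 and 1.17, Slc28a2 at 1.18, 1.07 and 0.71, and Slco3a1, measured in cluster 2, at 0.86. In lesion macrophages Slc16a3 stood at 0.78 in micrometastasis and 1.54 in macrometastasis. These cells formed 1 cluster, but split in 2 without cells under 3000 UMIs, in unlike shares of the libraries. In the cluster led by Sdc4, Ccl24 and Spp1, Slc16a3 stood at 162 CPM in Tim3-KD and 168 in Ctrl of micrometastasis, and in the one led by Pf4, Thbs1 and Ctsl at 67.7 and 53.7 CPM in macrometastasis.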

How the results depend on the processing

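No paired analysis was possible because each group is 1 library. Of 29 Slc genes at least 2-fold apart in AT (22 higher, 7 lower in Tim3-KD), 17 passed with a minimum of 500 UMIs and 11 at the same class shares, and the split became 14 higher and 14 lower with the trimmed mean of all genes set to 0, and 19 and 13 with a mean over cells. With that trimmed mean the counts were 0 (of 1) in micrometastasis, 1 (of 2) in macrometastasis, 2 (of 5) for micrometastasis against AT Ctrl and 2 (of 6) for macrometastasis against micrometastasis Ctrl. With 500 UMIs as the minimum they were 1 in macrometastasis and 3 for micrometastasis against AT Ctrl, and without genes often at the cap again 1 and 3. At the same class shares they were 0 in macrometastasis, 0 for micrometastasis against AT Ctrl and 0 for macrometastasis against micrometastasis Ctrl. For these counts, shares of all genes were taken only with the main settings and at the same class shares. The same shares turned the direction in AT of Slc16a3 (1.003), Slc22a15 (1.838), Slc2a3 (1.527), Slc2a6 (1.153) and Slc7a11 (2.358) and of Slc27a4, Slc29a1, Slc38a6 and Slc39a1, whose values stand above, for micrometastasis against AT Ctrl of Slco2a1 (0.9656) and for macrometastasis against micrometastasis Ctrl of Slc40a1 (0.9171) and Slc38a6. In macrometastasis neither called gene turned. Between Tim3-KD and Ctrl there were 14 ratios of rule-named genes within classes past 2-fold, and 12 to 15 such ratios under other clusterings, without cells under 3000 UMIs or with a mean over cells, which need not be the same ones. In clusters, an alternative chosen after seeing the data, 10 ratios passed. The calls within classes between Ctrl libraries were not put through these alternatives. Of the 14, 3 were in classes of 1 cluster, 4 could not be formed in any cluster, 1 passed in each cluster measured, 1 in some and 5 in none. Of 637 single values under the alternatives, 456 stayed within their counting interval and 174 moved beyond it. The other 7, those with a value in brackets above, reversed. The 2 UMI minimums and the cap filter do not change a ratio, so their 68, 61 and 59 values had to stay. The trimmed mean moved 64 and left 4, and the same class shares moved 45, reversed 7 and left 16. Only ratios past 2-fold could count as reversed, so Slco2a1 and Slc43a3 of macrometastasis, which crossed 1 at the same shares, did not. Whole-library ratios enter the total of 637 only for the 5 highest and 5 lowest of a comparison and the genes listed for their known roles. The other called genes that turned are therefore not in it. The sites were scaled separately by the authors, so levels across sites rest on the inverted UMIs.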
